A study of Macaca mulatta with 13 samples.

Results

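The monocyte and myeloid genes described here are 40 genes of the phagocyte lineage, chosen by name for their known use as markers or functional proteins of monocytes and their relatives. The choice was made with earlier results of these data known. The array annotation paired 35 of them with at least 1 probe set that carried that symbol and no other, 71 probe sets in all, out of 14132 genes named in this way and 52707 probe sets on the array. Each gene was represented by its probe set of highest mean over the 13 arrays, and 34 of the 35 lay above the limit on dim probe sets. CD36, a scavenger receptor, was too dim to be tested, at 3.61 to 4.31 on the log2 scale over the 13 arrays. CD163, MNDA, FCER1G, FPR2 and SPI1 had no probe set with a single symbol and were not analysed here.

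Rhesus macaques were sampled at 4 months of age after 1 of 3 kinds of early rearing, and the series asks whether leukocyte expression depends on it. Maternally reared infants (n = 5) were compared with peer reared infants (n = 4) and with surrogate-peer reared infants (n = 4), and the last 2 groups together are called non-maternal (n = 8). Total RNA of peripheral blood mononuclear cells, the fraction of blood that holds lymphocytes and monocytes, carried a biotin label and was read on Affymetrix rhesus arrays, 1 per sample. The labels name no genetic change, drug or infection in any group, and sex, housing details and batches were not used here.

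Monocytes are circulating phagocytes that arise in bone marrow under colony-stimulating factors and C/EBP transcription factors and that enter tissues as macrophages or inflammatory cells. They sense microbes and damaged cells through lectins, formyl peptide and complement receptors, signal through immunoreceptor adaptors and Src-family kinases, and kill with an NADPH oxidase and granule proteins. Classical monocytes carry much CD14 and S100 proteins, whereas nonclassical monocytes carry the Fc receptor CD16 and the chemokine receptor CX3CR1.

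All values are on the log2 scale, 1 per probe set and array, so a difference of 1 is a doubling. All measured markers of T cells (9), B cells (9) and natural killer cells (11) and 28 of 30 measured monocyte and macrophage genes outside the 40 were above the limit on dim probe sets. CD14, the defining gene of classical monocytes, had a mean of 11.90 ± 1.01 (SD, n = 5) on maternal arrays, and of 11.04 ± 0.44 and 11.08 ± 0.44 (SD, n = 4 each) on peer and surrogate-peer arrays. Neutrophils share many of the genes described, and 7 of the 12 measured neutrophil markers passed the limit; the other 5, which include the granule protease gene ELANE, did not. The arrays of the maternal group also differed in technical measures. The log2 ratio of 3' to 5' control signal was 1.56 to 2.22 in maternal and 1.31 to 1.74 in non-maternal samples, and the SD of all values of an array was 2.10 to 2.12 and 2.13 to 2.16. The part of these measures in the results was not tested. Mononuclear cells were measured in bulk, so fewer monocytes and less RNA per monocyte cannot be told apart.

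Maternal arrays 2 and 5 stood apart from the other 11. The mean deviation of 13 type I interferon response genes from their means over all arrays was 1.67 on both, against -0.81 to 0.20 on the others. The 9 measured T cell markers deviated by -0.56 and -0.55 there, against -0.24 to 0.36 on the other arrays. The same arrays were high for the myeloid genes, as described below, so the main counts and medians against the maternal group are also given without them.

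Across the 34 tested genes, expression tended to be lower in non-maternal than in maternal infants, but a single gene passed the test. MS4A7, a 4-pass membrane protein of monocytes and macrophages, fell by 1.48 ± 0.35 (SE) on the log2 scale, 2.79-fold lower (limma, adjusted p = 0.0310). It was 1 of 34 genes tested, or 2.94%, while 8% of all 26352 tested probe sets were called in either direction, 1.35% lower and 6.64% higher. The difference was negative for 27 of the 34 genes, or 79.4%, against 49% of all tested probe sets, and the median was -0.42 against 0.01. At an unadjusted p under 0.05, 12 genes were lower, or 35.3%, against 10% of all tested probe sets, and 1 gene, THBD, was higher, against 19%. In 0 of the 34 genes were the 8 non-maternal samples all on one side of the 5 maternal samples, while 0.971% of all probe sets lay entirely lower and 1.89% entirely higher.

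Without maternal arrays 2 and 5 these numbers were smaller. The median difference was -0.08, and 19 of the 34 genes were negative, against 50.8% of all tested probe sets. MS4A7 no longer passed (-0.92, limma adjusted p = 0.128). Over all probe sets the share called was then 0.140%. The share of all probe sets at an unadjusted p under 0.05 was not counted in this fit. Counts of genes at such a p without these arrays, given below, therefore have no background beside them. LYZ, which encodes the secreted antibacterial enzyme lysozyme, was the 1 gene called without these arrays, higher in non-maternal samples by 1.11 (limma, adjusted p = 0.0400). The 2 arrays were left out because their values stood apart, also for most of these genes. Leaving them out therefore moves the differences upward by the choice itself. They hold the 2 highest maternal values of LYZ, 13.83 and 12.67, so its p cannot be read as that of a choice made beforehand.

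**Figure D1:**
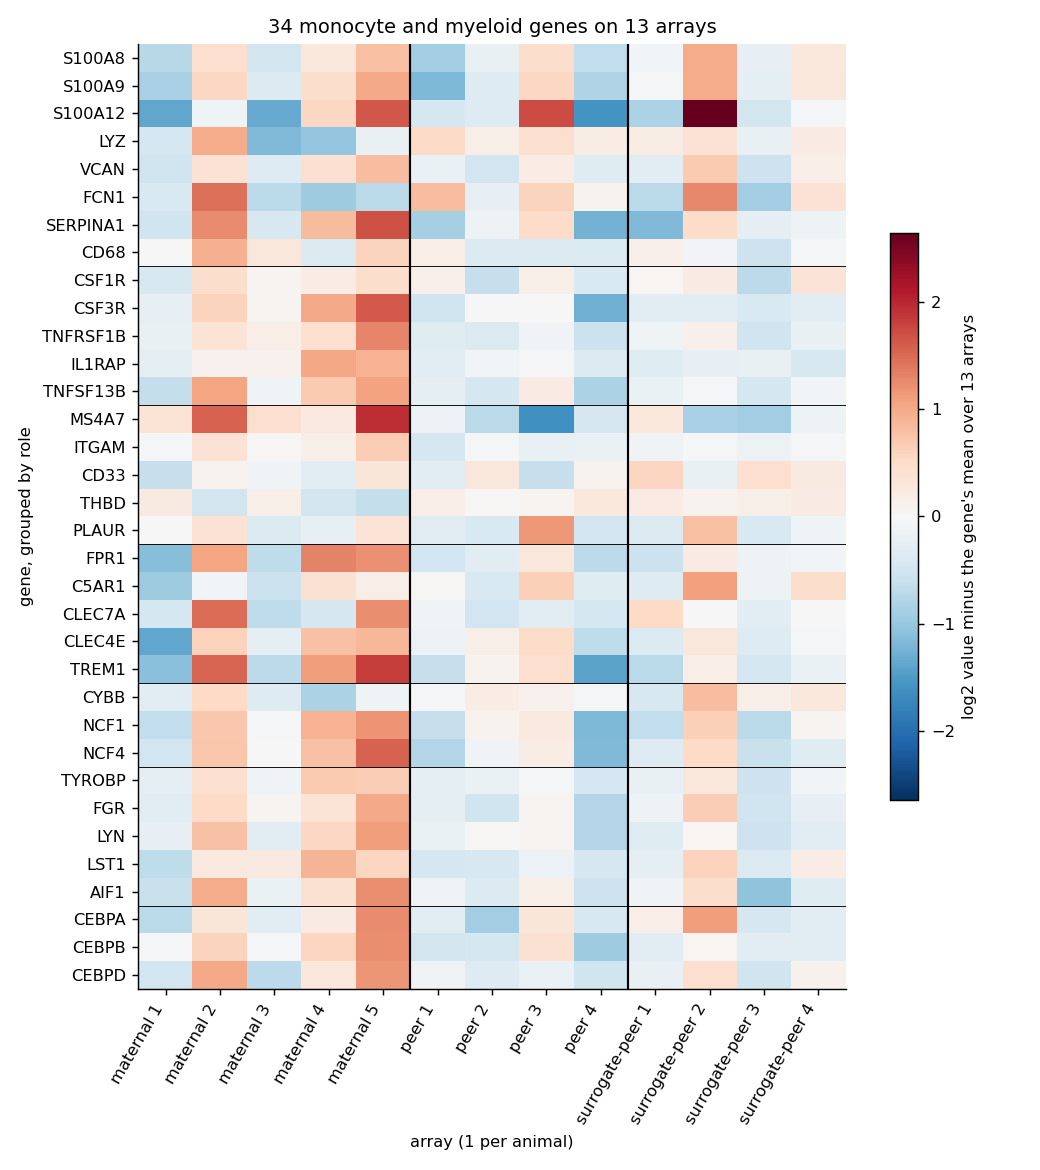
Log2 value minus the gene's mean over 13 arrays (colour) for the 34 tested genes (rows, grouped by role, with thin lines between roles) on each array (columns, grouped by rearing). Maternal arrays 2 and 5 are above the gene's own mean for 31 and 30 of the 34 genes, and maternal array 1 for 4.

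The pattern by array was shared by most of the genes. Maternal array 5 was the highest of the 13 for 19 genes, against 13.8% of all tested probe sets, and maternal array 2 for a further 4. Maternal arrays 1 and 3 were the 2 lowest maternal arrays for 26 of the 34 genes, or 76.5%, against 15.2% of all tested probe sets. The mean deviation over the 34 genes was -0.48, 0.64, -0.25, 0.32 and 0.88 on maternal arrays 1 to 5. It was -0.27, -0.24, 0.17 and -0.58 on peer arrays 1 to 4 and -0.21, 0.42, -0.39 and -0.01 on surrogate-peer arrays 1 to 4. The 3 groups overlapped, with the highest maternal arrays above and the lowest maternal arrays among the non-maternal ones.

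Spread was large within every group. The median SD of a gene over the 13 arrays was 0.59, against 0.22 for all tested probe sets. Within groups the median SD was 0.69 for maternal samples, 0.41 for peer and 0.43 for surrogate-peer samples, and the maternal SD was the largest of the 3 for 25 of the 34 genes, or 73.5%, against 57.6% of all tested probe sets. The fit used 1 spread for the 3 groups, so p-values against the maternal group are too small where the maternal values vary more. In the non-maternal groups, peer array 3 was the highest peer array for 23 genes, or 67.6%, against 22.7% of all tested probe sets. Surrogate-peer array 2 was the highest of its group for 25, or 73.5%, against 28.9%. Peer array 4 was the lowest of its group for 19, or 55.9%, against 26.5%. Surrogate-peer array 3 was the lowest of its group for 23, or 67.6%, against 24.9%.

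MS4A7 lies in the same gene family as the B cell gene MS4A1 (CD20) and is known for higher expression in nonclassical monocytes and macrophages. Its log2 values were 7.55, 8.76, 7.63, 7.45 and 9.13 on maternal arrays 1 to 5. On peer arrays 1 to 4 they were 7.04, 6.48, 5.58 and 6.75, and on surrogate-peer arrays 1 to 4 they were 7.47, 6.33, 6.27 and 7.05. All 4 peer samples were below all 5 maternal samples, and surrogate-peer sample 1 alone reached the lower end of the maternal range. The mean was 8.10 ± 0.78 (SD, n = 5) in maternal and 6.62 ± 0.59 (SD, n = 8) in non-maternal samples. Leaving out 1 array at a time moved the difference between -1.65 and -1.22, and the call was lost without any 1 of maternal arrays 2, 4 and 5, peer arrays 1 and 2 and surrogate-peer array 3 (limma adjusted p up to 0.0743). With the number in the sample title as a covariate the adjusted p was 0.0525. The gene's other 2 probe sets were too dim to test, with means of 4.22 and 4.01.

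ITGAM encodes CD11b, the integrin alpha chain of complement receptor 3. It was at 6.38, 6.81, 6.47, 6.58 and 7.09 on maternal arrays 1 to 5, at 5.97, 6.39, 6.22 and 6.25 on peer arrays and at 6.34, 6.37, 6.28 and 6.39 on surrogate-peer arrays. Maternal arrays 2, 3, 4 and 5 were above every non-maternal sample and maternal array 1 was among them. The difference was -0.39 ± 0.11 (SE) and missed the threshold (limma, adjusted p = 0.0548). With each array centred on its median the gene was called lower by 0.45 (limma, adjusted p = 0.0465). Its mean over the 13 arrays, 6.43, lay near the limit on dim probe sets, 6.04, and below a stricter limit of 6.93.

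THBD encodes thrombomodulin, an anticoagulant receptor also used to mark a dendritic cell subset. It is described array by array, as are LYZ and S100A12, because its values drew attention after they were seen. The values were 10.17, 9.45, 10.08, 9.45 and 9.31 on maternal arrays 1 to 5, 9.97 to 10.21 on peer arrays and 10.02 to 10.16 on surrogate-peer arrays. Here maternal arrays 2, 4 and 5 were lower than all the others, and maternal arrays 1 and 3 lay within the non-maternal range. The difference of 0.40 ± 0.14 (SE) did not pass (limma, adjusted p = 0.0916), and its other tested probe sets differed by 0.33 and -0.50.

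The remaining surface genes showed no common direction. CD33, a sialic acid binding lectin of myeloid cells, differed by 0.18 ± 0.19 (SE). PLAUR, the receptor of urokinase, differed by -0.06 ± 0.29 (SE), with a high value of 8.10 on peer array 3 where the other peer arrays held 6.46 to 6.67. Both intervals include 0, at -0.24 to 0.60 and -0.71 to 0.59 (95%).

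All 5 growth factor and cytokine receptors and ligands were lower in non-maternal samples, with a median difference of -0.67, and 4 had an unadjusted p under 0.05, but 0 of 5 passed after adjustment. All 5 were still negative without maternal arrays 2 and 5, with a median of -0.40. CSF3R, the receptor of granulocyte colony-stimulating factor, was at 10.70, 11.51, 10.99, 11.92 and 12.54 on maternal arrays 1 to 5. Its peer values were 10.39, 10.91, 10.91 and 9.66 and its surrogate-peer values 10.65, 10.64, 10.52 and 10.62. The 4 surrogate-peer samples were all below the lowest maternal sample and lay close together, whereas peer arrays 2 and 3 overlapped the low end of the maternal range. The difference was -0.99 ± 0.29 (SE), at an adjusted p of 0.0544 (limma), and a stricter limit on dim probe sets brought it past the threshold (limma, adjusted p = 0.0480).

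TNFRSF1B, the second receptor of tumour necrosis factor, was at 9.69 ± 0.55 (SD, n = 5) in maternal and 9.02 ± 0.24 (SD, n = 8) in non-maternal samples (limma, adjusted p = 0.0610). IL1RAP, the shared signalling chain of the interleukin-1 receptor family, was at 6.85 ± 0.56 and 6.23 ± 0.13 (limma, adjusted p = 0.0625). In both genes maternal array 1 lay within the non-maternal range and maternal arrays 2, 3, 4 and 5 lay above it. The mean of IL1RAP over the 13 arrays, 6.47, lay near the limit on dim probe sets and below the stricter limit. TNFSF13B encodes BAFF, a survival factor for B cells that myeloid cells secrete, and it differed by -0.68 ± 0.28 (SE; limma, adjusted p = 0.134), with -0.36 at its other probe set. CSF1R, the receptor that maintains monocytes and macrophages, differed by -0.25 ± 0.21 (SE), and its 95% interval of -0.72 to 0.21 includes 0.

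**Figure D2:**
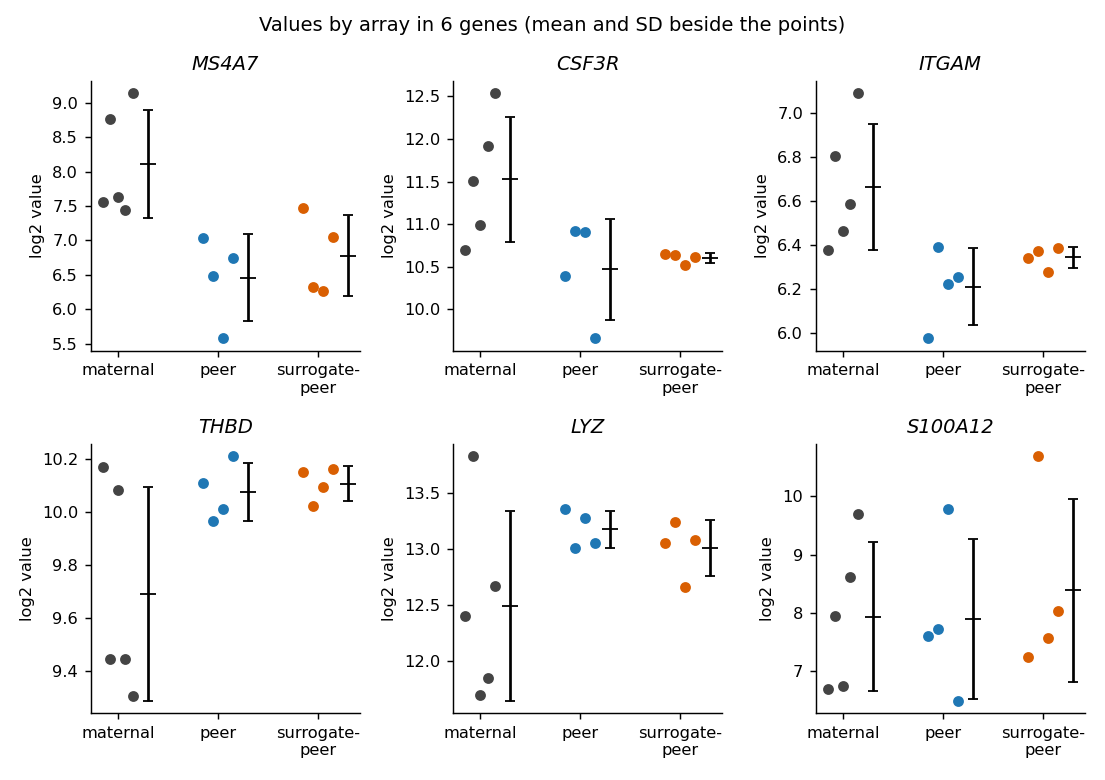
Log2 value on each array (points, 1 per sample) for 6 genes by rearing group, with the group mean and SD drawn beside the points; each panel has its own axis, which does not start at 0. Peer values of MS4A7 and surrogate-peer values of CSF3R lie below every maternal value, while the groups overlap in ITGAM, THBD, LYZ and S100A12.

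Secreted and granule proteins did not share a direction, and 0 of 8 passed the test. The median was -0.18, and 0.21 without maternal arrays 2 and 5, where LYZ was the 1 gene called. S100A8 and S100A9 form calprotectin, an abundant cytosolic complex of monocytes and neutrophils, and S100A12 is a related ligand of the receptor RAGE. In the macaque RefSeq annotation S100A12 lies directly beside S100A9, and 1 gene lies between it and S100A8. S100A8 differed by -0.11 ± 0.31 (SE), S100A9 by -0.26 ± 0.35 (SE) and S100A12 by 0.21 ± 0.71 (SE). S100A12 was at 6.69, 7.94, 6.73, 8.61 and 9.69 on maternal arrays 1 to 5, at 7.60, 7.72, 9.78 and 6.47 on peer arrays and at 7.23, 10.70, 7.57 and 8.03 on surrogate-peer arrays. In each group 1 or 2 samples were high, and the groups overlapped across most of their range. All 3 genes were highest within their groups on maternal array 5, peer array 3 and surrogate-peer array 2. On surrogate-peer array 2 the 7 tested neutrophil markers, of which CAMP and MMP9 had the highest means, deviated by 0.86, the highest of the 13 arrays, and on peer array 3 by 0.38; their part in these values was not tested.

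LYZ was at 12.40, 13.83, 11.70, 11.85 and 12.67 on maternal arrays 1 to 5, at 13.01 to 13.36 on peer arrays and at 12.66 to 13.25 on surrogate-peer arrays. Maternal array 2 was the highest of all 13, maternal array 5 was close to the lowest non-maternal value, and maternal arrays 1, 3 and 4 were below all 8 non-maternal values. The difference of 0.60 ± 0.29 (SE) did not pass (limma, adjusted p = 0.185), and without maternal array 2 alone LYZ was called higher by 0.94 (limma, adjusted p = 0.0319). FCN1, a secreted pattern-recognition lectin of monocytes, also had its highest value on maternal array 2, and differed by 0.42 ± 0.44 (SE).

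VCAN, a matrix proteoglycan typical of classical monocytes, differed by -0.25 ± 0.25 (SE), and 3 of its 4 other probe sets were also negative. CD68, a lysosomal membrane glycoprotein, differed by -0.47 ± 0.20 (SE; limma, adjusted p = 0.150). SERPINA1 encodes the elastase inhibitor alpha-1-antitrypsin and differed by -0.91 ± 0.43 (SE; limma, adjusted p = 0.180). Its probe sets did not share a direction, with -0.83 at the next brightest and 0.45 at another tested one. The probe set used for SERPINA1, like those used for S100A9, TYROBP, CEBPB and LST1, is of a type that can be shared by near-identical transcripts.

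Receptors for microbial patterns and chemoattractants gave 0 calls among the 5 tested, with a median of -0.37 and 0 genes at an unadjusted p under 0.05; without maternal arrays 2 and 5 the median was 0.20. TREM1, an amplifier of inflammatory signals, had the lowest difference at -0.86 ± 0.50 (SE). Its maternal values ran from 8.49 to 11.42, which covered nearly the whole range of the other groups, 8.18 to 10.03. FPR1, the formyl peptide receptor, differed by -0.57 ± 0.40 (SE). CLEC7A, the beta-glucan receptor dectin-1, and CLEC4E, the glycolipid receptor Mincle, differed by -0.37 ± 0.35 and -0.21 ± 0.35 (SE). For CLEC7A the values of maternal arrays 2 and 5 were 9.07 and 8.82, against 6.93 to 8.13 on the other arrays. C5AR1, the receptor of the complement fragment C5a, was positive at 0.32 ± 0.29 (SE). Without maternal arrays 2 and 5 the signs of CLEC7A and CLEC4E turned, to 0.39 and 0.20.

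Subunits of the phagocyte NADPH oxidase differed in direction, and 0 of 3 passed, with a median of -0.69, or -0.33 without maternal arrays 2 and 5. CYBB encodes the membrane-bound catalytic subunit and was positive at 0.35 ± 0.22 (SE), with -0.04 and 0.13 at its 2 other probe sets. NCF4 and NCF1 encode the cytosolic subunits p40phox and p47phox and were negative, at -0.83 ± 0.34 and -0.69 ± 0.36 (SE; limma, adjusted p = 0.133 and 0.218). The 3 probe sets of NCF1 gave -0.69, -0.67 and -0.72; this gene has near-identical copies in primates, so its probe sets may report more than 1 locus. Among 5 measured partners of the oxidase, 1 was called lower, CYBC1, a chaperone of the membrane subunits, at -0.24 ± 0.07 (SE; limma, adjusted p = 0.0441), and 0 were called higher; the median was -0.17. Of all tested probe sets 1.35% were called lower and 6.64% higher. With maternal arrays 2 and 5 left out, 0 of 5 partners were called (limma), 1 was lower at an unadjusted p under 0.05, and the median was -0.11.

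All 5 tested adaptors, kinases and related signalling genes were lower in non-maternal samples, with a median of -0.55, and 0 passed. The 5 were also negative without maternal arrays 2 and 5, with a median of -0.27. TYROBP encodes DAP12, the adaptor of TREM and other activating receptors, and differed by -0.47 ± 0.18 (SE; limma, adjusted p = 0.113). The Src-family kinases LYN and FGR differed by -0.62 ± 0.24 and -0.55 ± 0.24 (SE; limma, adjusted p = 0.113 and 0.144). LYN was negative at all 3 of its probe sets. AIF1, an actin-binding protein of activated macrophages, and LST1, a leukocyte transmembrane adaptor, differed by -0.60 ± 0.32 and -0.42 ± 0.23 (SE), and 1 gene lies between them in the annotation. Of 11 tested genes that act in the same receptor pathways, 2 were called lower, or 18.2%, against 1.35% of all tested probe sets, and 0 higher, against 6.64%. They were SYK, the kinase that these adaptors recruit (-0.75 ± 0.18, SE; limma, adjusted p = 0.0342), and INPP5D, the inositol phosphatase SHIP1 (-0.23 ± 0.06, SE; limma, adjusted p = 0.0355). When maternal arrays 2 and 5 were left out, 0 of 11 were called (limma) and 2 were lower at an unadjusted p under 0.05; the median moved from -0.23 to -0.20.

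Transcription factors of the C/EBP family, which direct granulocyte and monocyte differentiation and inflammatory gene expression, were lower at all 3 genes, and 0 passed. CEBPB was at 12.60 ± 0.52 (SD, n = 5) in maternal and 11.85 ± 0.40 (SD, n = 8) in non-maternal samples, a difference of -0.75 ± 0.24 (SE; limma, adjusted p = 0.0686). Its non-maternal values reached 12.54 on peer array 3, above the 2 lowest maternal values of 12.10 and 12.11, so the groups overlapped. CEBPD differed by -0.42 ± 0.30 (SE) and CEBPA by -0.25 ± 0.34 (SE). Both turned positive without maternal arrays 2 and 5, at 0.14 and 0.16, and the median of the 3 moved from -0.42 to 0.14.

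**Figure D3:**
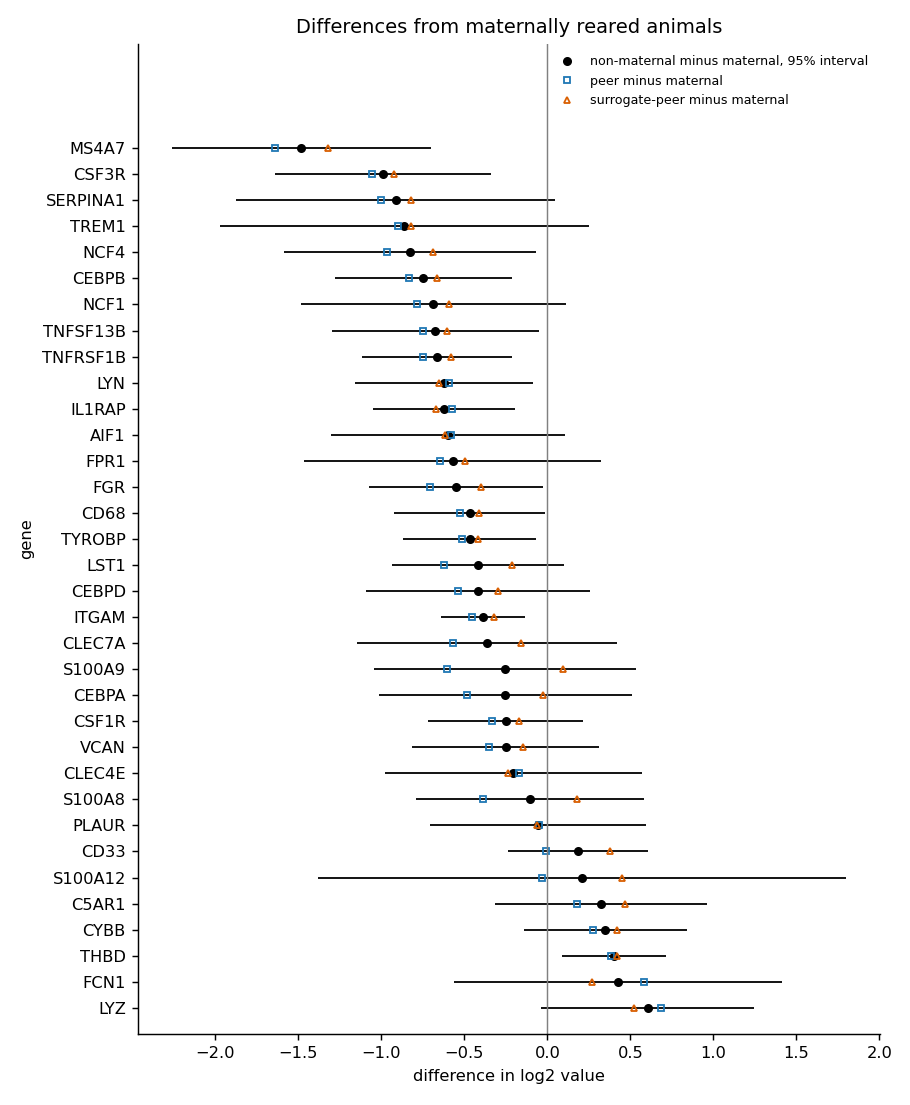
Difference in log2 value from maternally reared animals for the 34 tested genes (rows): black circles are the non-maternal minus maternal difference with its 95% interval, blue squares peer minus maternal and orange triangles surrogate-peer minus maternal. The interval excludes 0 for the 13 genes with an unadjusted p under 0.05, and MS4A7, at -1.48, is the lowest.

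Taken separately, the 2 non-maternal groups were compared with the same 5 maternal samples, so their differences are not independent of each other. For peer against maternal infants 0 of 34 genes passed (limma), while 0.353% of all tested probe sets did. At an unadjusted p under 0.05, 12 genes were lower, or 35.3%, against 8.20% of all tested probe sets, and 1 was higher, against 16.7%. The median was -0.55 against 0.00, and 29 of 34 genes were negative, or 85.3%, against 49.4%. Without maternal arrays 2 and 5 the median was -0.14 and 23 were negative. MS4A7 had the lowest value, -1.64 ± 0.41 (SE; limma, adjusted p = 0.0627), and was the 1 gene of 34 whose peer values were all below the maternal ones, or 2.94%, against 3.85% of all tested probe sets.

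For surrogate-peer against maternal infants 0 of 34 genes passed (limma), and 0% of all tested probe sets did. At an unadjusted p under 0.05, 7 genes were lower, or 20.6%, against 6.32% of all tested probe sets, and 1 was higher, against 14%. The median was -0.31 against 0.01, and 25 of 34 genes were negative, or 73.5%, against 47.8%. Without maternal arrays 2 and 5 the median was -0.02 and 17 were negative. MS4A7 again had the lowest value at -1.32 ± 0.41 (SE; limma, adjusted p = 0.124). CSF3R, at -0.92 ± 0.34 (SE), was the 1 gene whose surrogate-peer values all lay below the maternal ones, or 2.94%, against 2.48% of all tested probe sets. Secreted and granule proteins had a median of 0.13 in this comparison and -0.37 for peer against maternal, and S100A8 and S100A9 were at 0.18 and 0.09 here and at -0.39 and -0.60 there.

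The direct comparison of surrogate-peer with peer infants gave 0 calls among the 34 genes and 0% over all tested probe sets (limma), and 0 of the 34 had an unadjusted p under 0.05, against 1.83% of all tested probe sets. Values were negative for 7 of the 34 genes, or 20.6%, against 49.8% of all tested probe sets, with a median of 0.16 against 0.00. S100A9 had the highest difference, 0.69 with a 95% interval of -0.28 to 1.67, followed by S100A8 at 0.57 with -0.29 to 1.42. FCN1 had the lowest, -0.32 with -1.54 to 0.91. These intervals leave room for differences of over 2-fold in either group's favour at some genes, so a miss of the threshold does not show that the groups were alike. The median turned to -0.16 when the number in the sample title was a covariate; this number ran from 9 to 32 in surrogate-peer and from 35 to 47 in peer samples, so the group and the number cannot be told apart here.

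Lists of other monocyte genes, chosen with earlier results of these data known, were described in the same fit of non-maternal against maternal samples. Of 28 further monocyte and macrophage genes, 1 was called lower, or 3.57%, against 1.35% of all tested probe sets, and 0 higher, against 6.64%. The median was -0.20, and 20 of 28 were negative, or 71.4%, against 49%. Leaving out maternal arrays 2 and 5, 0 of 28 were called (limma), 2 were lower at an unadjusted p under 0.05, and the median was 0.07 with 11 negative. The called gene was TNFAIP2, a gene induced by tumour necrosis factor, at -0.41 ± 0.07 (SE; limma, adjusted p = 0.0203). CD14, named here after its values were seen, differed by -0.83 ± 0.37 (SE) and did not pass (limma, adjusted p = 0.155).

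Genes of nonclassical monocytes were lower at all 10 tested genes, with a median of -0.33, while 49% of all tested probe sets were negative. Of the 10, 3 were called lower, or 30%, against 1.35% of all tested probe sets, and 0 higher. With maternal arrays 2 and 5 left out, 0 of the 9 genes then above the limit were called (limma), against 0.0342% called lower over all probe sets, and 6 were lower at an unadjusted p under 0.05. All 9 were negative, with a median of -0.37; CX3CR1 was not tested there, and FCGR3 was at -0.81 (limma, adjusted p = 0.106). FCGR3, which encodes CD16, was called lower at -1.20 ± 0.29 (SE; limma, adjusted p = 0.0318), from 8.49 ± 0.77 (SD, n = 5) in maternal to 7.16 ± 0.40 and 7.41 ± 0.32 (SD, n = 4 each) in peer and surrogate-peer samples. SIGLEC10, an inhibitory lectin, and CX3CR1, the fractalkine receptor, were called lower at -0.38 ± 0.09 and -0.30 ± 0.07 (SE; limma, adjusted p = 0.0317 and 0.0289). Both lay near the limit on dim probe sets, 6.04. CX3CR1 had means of 6.25 on maternal, 5.93 on peer and 5.98 on surrogate-peer arrays, and SIGLEC10 of 6.29, 5.96 and 5.86. They passed the limit only through their maternal values, so their calls and the share of 30% carry little weight. The mean deviation of this list was above 0 on every maternal array, at 0.04 to 0.43. It was below 0 on every non-maternal array, at -0.33 to -0.01. This mean includes CX3CR1 and SIGLEC10 and was not taken without them, so the full separation of the groups may rest on them. The nearest arrays were maternal array 1, at 0.04, and surrogate-peer array 1, at -0.01. Maternal arrays 1 and 3, which were low for most of the myeloid genes described above, were at 0.04 and 0.31 for this list. Natural killer cells share CD16 and CX3CR1, and 4 of 11 natural killer cell markers were called lower, or 36.4%, against 1.35% of all tested probe sets, and 0 higher, the cytotoxic granule genes GZMH, GZMB, NKG7 and CST7, with a median of -0.87 for the list. When maternal arrays 2 and 5 were left out, 0 of 11 were called (limma), 8 were lower at an unadjusted p under 0.05, and the median was -0.99. The share of all probe sets at such a p was not counted there, so neither list's count has a background. The deviation of the natural killer list was -0.21 to 0.99 on maternal and -0.80 to 0.59 on non-maternal arrays, so the groups overlapped in it. It was highest on maternal arrays 1 and 3, at 0.99 and 0.88. Peer array 1 and surrogate-peer array 1 were the highest of their groups for both lists and for MS4A7. Maternal array 5 was the lowest maternal array for the natural killer list and the highest for the nonclassical list and MS4A7. The part of the natural killer list in the values of the nonclassical genes and of MS4A7 was not tested.

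**Figure D4:**
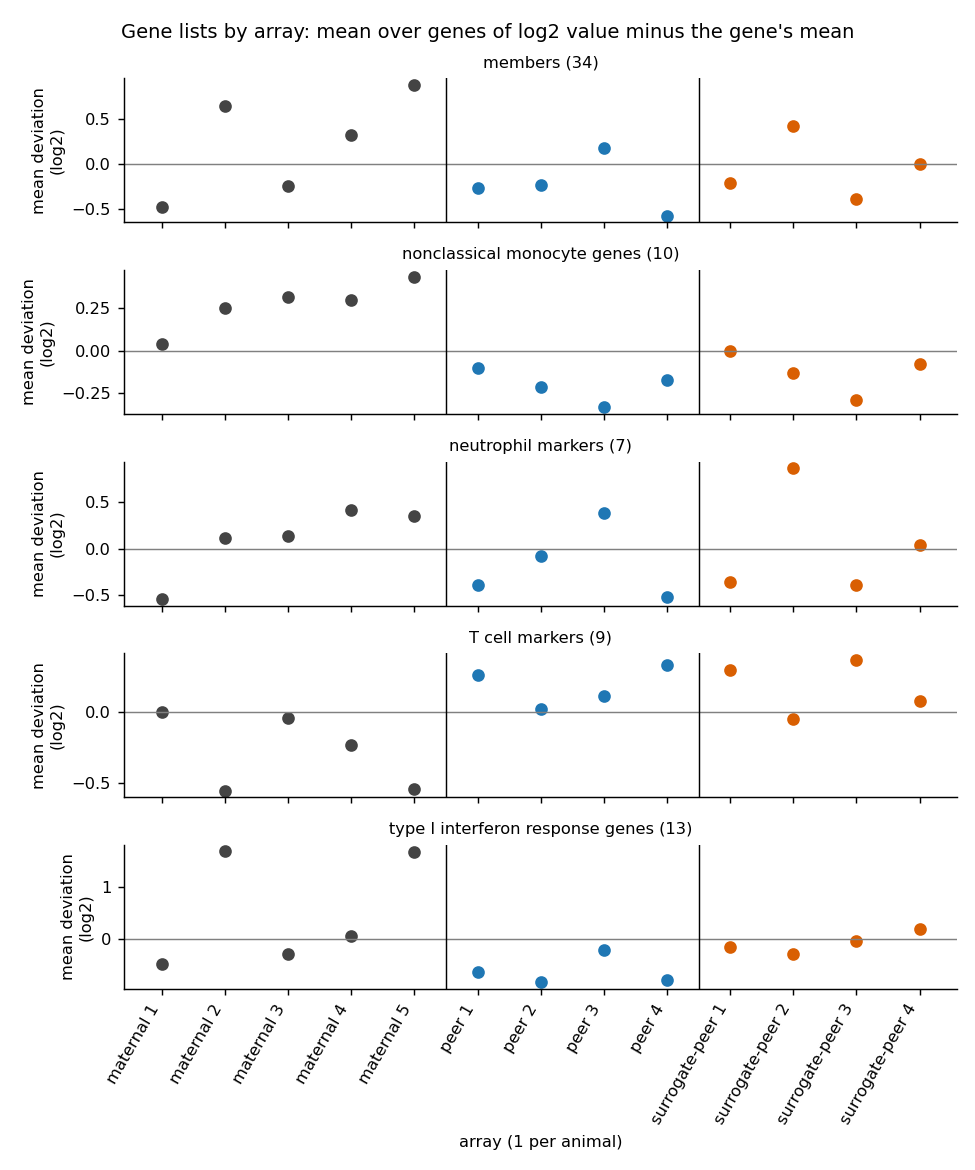
Mean over the genes of a list of the log2 value minus the gene's mean over 13 arrays (vertical axis) on each array (horizontal axis, coloured by rearing group), for the 34 myeloid genes and 4 other lists. Maternal arrays 2 and 5 are at 1.67 for interferon response genes. Every maternal array is above every non-maternal array for the nonclassical monocyte genes. That list includes CX3CR1 and SIGLEC10, which passed the limit on dim probe sets only through their maternal values.

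Markers of other blood cells were described in the same way, against 8% of all tested probe sets called in either direction. Of 9 T cell markers 1 was called higher in non-maternal samples, BCL11B, and 0 lower, with a median of 0.63, or 0.24 without maternal arrays 2 and 5. Of 9 B cell markers 1 was called lower, FCRLA, and 0 higher, with a median of -0.70, or -0.48 without these arrays. Their median was -0.21 for peer and -1.19 for surrogate-peer against maternal samples. For surrogate-peer against peer it was -0.90, all 9 were lower at an unadjusted p under 0.05, and 0 passed (limma). Of all tested probe sets 1.83% had such a p in that comparison, in either direction. Of 8 dendritic cell markers 1 was called higher in non-maternal samples, FCER1A (1.91, limma adjusted p = 0.0315), and 0 lower. The median of this list was -0.10, and 5 of the 8 were negative. Of 4 basophil and mast cell markers 1 was called higher, CPA3 (1.34, limma adjusted p = 0.0437), and 0 lower. All 4 were positive, with a median of 0.60. At an unadjusted p under 0.05, 10% of all tested probe sets were lower in non-maternal than in maternal samples. Neutrophil markers gave 0 calls among 7 by limma, 2 lower at an unadjusted p under 0.05 and a median of -0.17. Platelet and erythroid markers gave 0 calls among 9 and 4 by limma, 1 and 0 lower at an unadjusted p under 0.05, and medians of -0.23 and -0.18. Type I interferon response genes gave 0 calls among 13 by limma, 6 lower at an unadjusted p under 0.05 and a median of -0.95, which was -0.16 without maternal arrays 2 and 5. Leaving these arrays out, 0 genes of these 8 lists were called (limma), with medians of -0.00 for dendritic cell, 0.61 for basophil and mast cell, -0.17 for neutrophil, -0.19 for platelet and 0.11 for erythroid markers. On the log2 scale, the mean level over the T cell markers was 8.52 to 9.07 on maternal and 9.02 to 9.44 on non-maternal arrays, and that of the neutrophil markers 8.35 to 9.30 and 8.36 to 9.75. The part of these cells in the differences of the myeloid genes was not tested.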

How the data were processed

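The authors deposited log2 values, 1 per probe set and array. The submitters' processing notes name RMA (robust multi-array average); its version and settings, and whether all 13 arrays were normalized in 1 run, are not given in the sources used. Any shift that normalization left between groups would enter every difference from maternal samples. Of 52865 rows, 158 control probe sets were left out. Probe sets with a mean above the median of the means (6.04) were tested, 26352 in all. limma 3.58.1 in R 4.3.3 (lmFit, eBayes) was fitted to all 13 arrays with 10 residual degrees of freedom; p-values are two-sided, adjusted by Benjamini-Hochberg over all tested probe sets, with a threshold of 0.05. They measure the spread between samples, taken as 1 animal each. Arrays have no read depth; their number limits precision. Replicate numbers follow accession order and pair nothing. Symbols come from the platform annotation (24956 probe sets with 1 symbol, 361 with several, 27390 with none); gene neighbours come from RefSeq (T2T-MMU8v2.0). Array values are given for genes called in any comparison and the 3 of smallest p in the first; of other lists, up to 4 called genes are named, or the 2 of highest mean for cell types set beside a result. Members and lists were chosen with earlier results of these data known. The fit was tested on simulated data. Alternatives changed the filter, normalization, weights, spread, samples, covariate and probe set rule.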

Additional observations from a re-analysis of the deposited data

Results flagged for a closer look

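In 5 of the 102 groups looked at, 34 genes in 3 groups each, 1 sample lay far from the others of its group relative to the group's range. Chance gives about 1 in 20 groups, or 5.1. FCN1 was at 11.60 on maternal array 2, with the next maternal value at 9.75. CD68 was at 8.23 (8.235) on peer array 1, with the next at 7.70. CEBPB was at 12.19 on surrogate-peer array 2, with the next at 11.87. PLAUR was at 8.10 on peer array 3, with the next at 6.67, and LST1 was at 11.38 on the same array, with the next at 11.12 (11.125).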

How the results depend on the processing

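The number of the 34 genes called for non-maternal against maternal samples, 1 as reported, was 2 with a stricter limit on dim probe sets (MS4A7, CSF3R), 2 with centred arrays (MS4A7, ITGAM), 4 with the title number as a covariate (ITGAM, CSF3R, TNFRSF1B, IL1RAP) and 0 to 12 without single arrays, 12 without maternal array 1 and 0 without maternal array 4 or 5, peer array 1 or 2 or surrogate-peer array 3. It was 1 (LYZ) without maternal array 2, and 2 without peer array 3. Without maternal array 1, 11 of the 12 genes were lower and 1 higher. Over all tested probe sets 18.3% were called without maternal array 1, 4.62% without maternal array 2 and 3.74% without peer array 3. The share was 11.9% with the title number, 10.4% with the stricter limit and 7.32% with centred arrays. For peer against maternal, the number of the 34 genes called, 0 as reported, was 1 with array weights and 2 with the title number. Of all tested probe sets 5.86% and 6.90% were called in these settings. Without single arrays the number of genes was 0 to 9, and 9 without maternal array 1, where 13.2% of all tested probe sets were called. For surrogate-peer against maternal, also 0 as reported, it was 0 to 2 without single arrays. The 2 were called without maternal array 1, where 7.95% of all tested probe sets were called. The median difference of surrogate-peer and peer turned to -0.16 with the title number. Without maternal arrays 2 and 5 the sign turned for VCAN (0.048), S100A8 (0.27), S100A9 (0.15), CLEC7A (0.39), CLEC4E (0.20), CEBPA (0.16), CEBPD (0.14) and PLAUR (0.17), and with the title number for S100A12 (-0.35) and CD33 (-0.011). Without single arrays S100A8 ran from -0.30 to 0.079, S100A12 from -0.18 to 0.65, CEBPA from -0.47 to 0.021 and PLAUR from -0.25 to 0.031. The cause was not tested. Over all probe sets 2107 were called as reported and 30 to 4823 without single arrays; 83.1% of the calls were higher, 56.7% with centred arrays and 65.8% after quantile normalization. A fit on the compared groups alone gives no separate value for the first comparison, which uses all 13 arrays. No paired analysis was possible because the replicate numbers follow accession order.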
